A study of Mus musculus with 31 samples.

Results

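The mouse immunoglobulin lambda (Igl) light chain locus was examined in ChIP-seq peak lists for NIPBL and Rad21 from B cells. The region was fixed by position, as chr16:18980001-19300000 of mm9, a stretch of 320 kb that holds the locus with its flanks. Its members are the deposited peaks that overlap it by 1 base or more, which were 3986 of the 17061930 peaks in 26 lists, with 1612 of them from NIPBL and 2374 from Rad21. The series asked what part cohesin-driven loop extrusion plays in class switching at the heavy chain locus, and the lambda locus is not a site of class switching.

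The labels give all cells as C57BL/6 and as AID-deficient. The second label means that they lack the enzyme that starts class switch recombination. NIPBL was mapped in mature splenic B cells stimulated for 48 h with anti-CD40 plus IL-4 (n = 3) and in unstimulated ones (n = 3). It was also mapped in CH12F3, an established mouse B lymphoma line, stimulated for 24 h with anti-CD40, with IL-4 and with TGF-β (n = 2), and unstimulated (n = 2). Rad21 was mapped in splenic B cells after the same 48 h of stimulation (n = 3) and without it (n = 3). In CH12F3 it was mapped after the same 24 h of stimulation (n = 4) and without it (n = 3). Rad21 was also mapped in stimulated cells titled i3CBEs (n = 3). Their labels give 24 h, and their titles the same agents as for stimulated CH12F3. Titles give the CH12F3 line as CH12F3NCdel, and neither that name nor i3CBEs is expanded in the labels. For the CH12F3 and i3CBEs Rad21 samples the cell type label names splenic B cells, against the source name and the title, which were followed. The labels do not say whether replicates came from separate animals or cultures, so each p-value is set against a spread that may be technical.

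Lambda light chains are assembled by joining a variable to a joining segment, next to a constant gene, and the mouse locus is far smaller and far less used than the kappa locus. NIPBL is the cohesin loader. Rad21 is the subunit that closes the cohesin ring, and cohesin is known to extrude chromatin into loops and to be held at sites bound by CTCF, which gives sharp Rad21 peaks. In the gene order of RefSeq's annotation of a later build, GRCm38.p6, 12 lambda segments lie between the protein-coding genes Hira and Olfr164. They are 3 variable, 5 joining and 4 constant segments, and 3 of the 12 are pseudogenes. No mm9 annotation or sequence was used here, so no peak is assigned to a segment and sites are given by their mm9 coordinates and by the distance of their centre from the left edge of the region.

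The lists held between 42659 and 1332862 peaks and no read counts, so sequencing depth is unknown. In every list the 20000 peaks with the smallest p-value are called top peaks, and the measure is the percent of bases that they cover. Peaks were called against a control named in the peak names for all 16 Rad21 lists, but for few of the NIPBL lists, and stimulated and unstimulated Rad21 lists of a cell type name different controls, which cannot be told apart from stimulation. Stimulated splenic Rad21 replicate 2 stood apart from the other 11 splenic lists, with 0.0103% of its peaks on the Y chromosome, against 0.0229% to 0.0434% in the others, and the tested differences in splenic Rad21 are given without it too. Of the 147 top peaks in the region, 112 were from Rad21 and 35 from NIPBL. In each Rad21 library the region was covered 4.35 to 14.3 times as much as the mean 320 kb window of the same library, and it ranked between the 98.3rd and the 99.9th percentile of 8007 windows. For NIPBL the same ratio ran between 0.053 and 1.42, and the rank between the 21.5th and the 78.0th percentile. The neighbouring 320 kb window on the left was covered less than the region in 16 of 16 Rad21 libraries, and more than the region in 10 of 10 NIPBL libraries. The neighbouring window on the right was covered less than the region in 16 of 16 Rad21 libraries and in 9 of 10 NIPBL libraries.

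**Figure D1:**
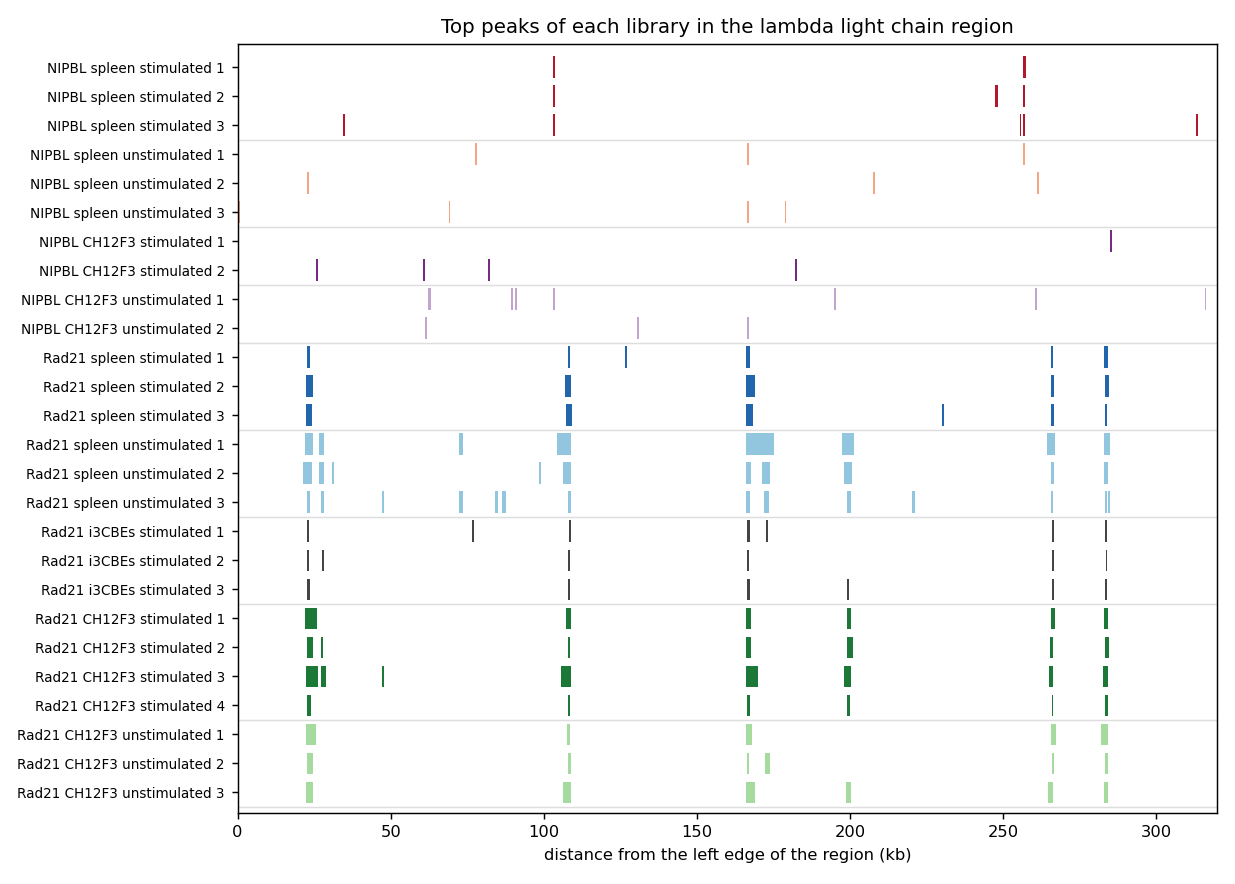
Top peaks of each of the 26 libraries (rows) along the lambda region, by distance from its left edge in kb; peaks narrower than 0.6 kb are drawn 0.6 kb wide. Rad21 peaks line up in 5 columns in all 16 Rad21 libraries, with further peaks mostly in unstimulated splenic B cells, whereas NIPBL peaks are few and line up in few places.

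Rad21 marked the same 5 places of the lambda region in every library. Top Rad21 peaks that overlapped by 1 base or more were merged into 17 sites, and 5 of these held a top peak in all 16 libraries, whatever the cell type or stimulation. They lay at chr16:19001351-19006142 (the 23-kb site), chr16:19084328-19089348 (108 kb), chr16:19145906-19155250 (167 kb), chr16:19244263-19247164 (266 kb) and chr16:19262048-19264840 (284 kb), each given at its widest extent over the libraries. From left to right their centres were 84.7, 58.9, 99.0 and 17.6 kb apart, so that they spanned 260.2 kb of the region. The bins of 10 kb that held them were the 5 of 32 bins covered in all 16 Rad21 libraries, and 16 of 32 bins were covered in no Rad21 library. No bin was covered in all 10 NIPBL libraries.

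At these 5 sites the strongest peak of a library ranked between 115 and 8299 among the peaks of its list, well inside the 20000. Its fold enrichment, a value of the authors' peak caller for that peak in its own list, lay between 7.33 and 41.2. The 266-kb site held the highest of these, 41.2 in unstimulated splenic replicate 2, and 30.6 in unstimulated CH12F3 replicate 2, and its values ran down to 8.82 in stimulated splenic replicate 3. The lowest, 7.33, was at the 284-kb site in stimulated splenic replicate 1, where the other 15 libraries lay between 12.1 and 28.8. The width of the strongest peak varied between 256 and 9173 bases. The 9173-base peak was at the 167-kb site in unstimulated splenic replicate 1, while the other unstimulated splenic libraries had 1656 and 1224 bases for their strongest peak there. That wide peak alone joined to the site separate peaks that some other libraries had at 170 to 180 kb.

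The other 12 Rad21 sites were found in fewer libraries. The 200-kb site, chr16:19177345-19181200, had a top peak in 9 of 16 libraries and the 28-kb site, chr16:19006549-19008831, in 6 of 16. Of the remaining 10 sites, 2 were found in 2 libraries and 8 in 1. Unstimulated splenic B cells had a top peak at 14 of the 17 sites, among them 7 of these 10 rare ones. Stimulated splenic cells had one at 7 sites, i3CBEs and stimulated CH12F3 at 8 each, and unstimulated CH12F3 at 6. The rare sites of unstimulated splenic cells were mostly those of single libraries. Bins at 80 to 90 kb and 220 to 230 kb were covered by 21.2% and 10.5% in unstimulated splenic replicate 3 and in no other Rad21 library. Counting a pair of peaks as shared only at 50% of the shorter one left the number of sites, and the number found in all libraries, as they were. This check could not split the 167-kb site, since a wide peak that holds a narrow one whole always meets that rule.

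Stimulated splenic B cells carried fewer top Rad21 peaks in the lambda region than unstimulated ones. The region held 6, 5 and 6 top peaks in the stimulated libraries, against 8, 10 and 14 in the unstimulated ones, without overlap. Fewer top peaks without overlap were also seen in 9.07% of the 5467 windows with top peaks in at least 2 of these 6 libraries, and no test was made of this count. Top peaks covered 1.38%, 2.94% and 2.57% of the region in stimulated cells, against 8.64%, 5.21% and 4.12% in unstimulated cells. The group means were 2.30% ± 0.818 and 5.99% ± 2.36 (SD, n = 3 each), a difference of -3.69 percentage points (SE 1.38). Of all tested windows, 8.1% were lower without overlap. The difference did not pass the test (limma over all covered windows, Benjamini-Hochberg adjusted p = 0.131). The difference shrank to -0.132 points (adjusted p = 0.926) when each list was cut to the same covered length of 5 Mb. Its size also moved with the peaks used, to -1.44 points (adjusted p = 0.596) with 10000 top peaks, -7.61 points (adjusted p = 0.37) with 40000, -3.75 points (adjusted p = 0.94) with all deposited peaks and -8.06 points (adjusted p = 0.999) with those whose -log10 q was at least 5. It was -4.01 points (adjusted p = 0.224) without stimulated splenic replicate 2. It passed the test in a fit of all Rad21 groups together (adjusted p = 0.0419) and without unstimulated splenic replicate 3 (adjusted p = 0.033).

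The bin that passed the test between stimulated and unstimulated splenic cells was that of the 200-kb site. In the bin 190 to 200 kb from the left edge (chr16:19170001-19180000), top peaks covered 0%, 0% and 0% in stimulated libraries, against 26.6%, 18.1% and 10.4% in unstimulated ones. The difference of -18.4 points (SE 3.95) passed the test (limma over all covered bins, adjusted p = 0.0425). The bin met the filter of coverage in at least 2 libraries only through the unstimulated ones. It was the 1 bin called lower of the 9 tested in the region, where 2.69% of all tested bins were called lower, and none was called higher, where the background was 0.128%. The median difference of the 9 bins was -7.74 points, against -0.20 over all 22603 bins tested.

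This call rests on the threshold of 20000 peaks and on single libraries. Every stimulated splenic list also holds a deposited peak there, at ranks 57778, 23567 and 29306 of its list, whereas the peaks of the unstimulated libraries ranked 13198, 13956 and 7799. The fold enrichment of the strongest peak was 3.51, 6.54 and 5.42 in stimulated libraries and 10.2, 9.54 and 7.25 in unstimulated ones, each relative to its own list. The adjusted p rose to between 0.0529 and 0.143 in 5 of the 6 fits that left out 1 library, with 0.124 for stimulated replicate 2 left out, and was 0.0114 without unstimulated replicate 3. With 40000 top peaks the difference was -10.1 points (adjusted p = 0.427), and with all deposited peaks -16.4 points (adjusted p = 1). With 10000 top peaks the bin was covered in too few libraries to be tested.

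A pair of further bins had top Rad21 coverage in every unstimulated and in no stimulated splenic library, without passing the test. The bin at 170 to 180 kb takes the right end of the widest extent of the 167-kb site. It was covered 0%, 0% and 0% in stimulated cells and 52.5%, 26.4% and 16.5% in unstimulated cells (limma, difference -31.8 points, SE 8.25, adjusted p = 0.0717). In unstimulated replicate 1 this was part of the 9173-base peak. In unstimulated replicates 2 and 3 it came from peaks separate from the strongest peak of the site. Only the wide peak of replicate 1 merged this place into the 167-kb site. The bin at 200 to 210 kb, which takes the right end of the 200-kb site, was covered 0%, 0% and 0% in stimulated cells and 12.0%, 6.33% and 2.18% in unstimulated cells (difference -6.84 points, SE 2.27, adjusted p = 0.137). With the called bin these made 3 of 9 bins that were lower without overlap of the groups, against 9.76% of all tested bins. The bin at 70 to 80 kb was covered 0%, 0% and 0% in stimulated cells and 12.3%, 0% and 10.9% in unstimulated cells, so the groups overlapped (difference -7.74 points, SE 2.89, adjusted p = 0.194). Without stimulated replicate 2 the adjusted p of these bins was 0.200 at 170 to 180 kb, 0.320 at 200 to 210 kb and 0.412 at 70 to 80 kb. At the 28-kb site all 3 unstimulated splenic libraries had a top peak, at ranks between 13292 and 15421, and no stimulated one did. Fold enrichments there were 4.12, 4.52 and 4.79 in stimulated and 9.11, 8.66 and 5.56 in unstimulated libraries. The share of all Rad21 sites of the genome that split these groups in this way was not computed.

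At the 5 bins covered in all 16 Rad21 libraries, 1 for each shared site, no difference between stimulated and unstimulated splenic cells passed the test. Stimulated means were lower in each, and the values of the groups overlapped. For the 167-kb site this is the bin at 160 to 170 kb, and its widest extent also reaches into the bin at 170 to 180 kb given above, where the groups did not overlap. At the 23-kb site the bin was covered 9.86%, 24.2% and 20.5% in stimulated cells and 42.7%, 44.0% and 19.4% in unstimulated cells (difference -17.2 points, SE 10.2, adjusted p = 0.415). At the 284-kb site it was covered 10.2%, 14.6% and 8.47% in stimulated cells and 20.0%, 11.0% and 9.03% in unstimulated cells (difference -2.22 points, SE 4.19, adjusted p = 0.879). Without stimulated replicate 2 these differences were -20.2 points (adjusted p = 0.433) and -3.99 points (adjusted p = 0.697), and those of the other shared sites had adjusted p-values between 0.600 and 0.800.

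**Figure D2:**
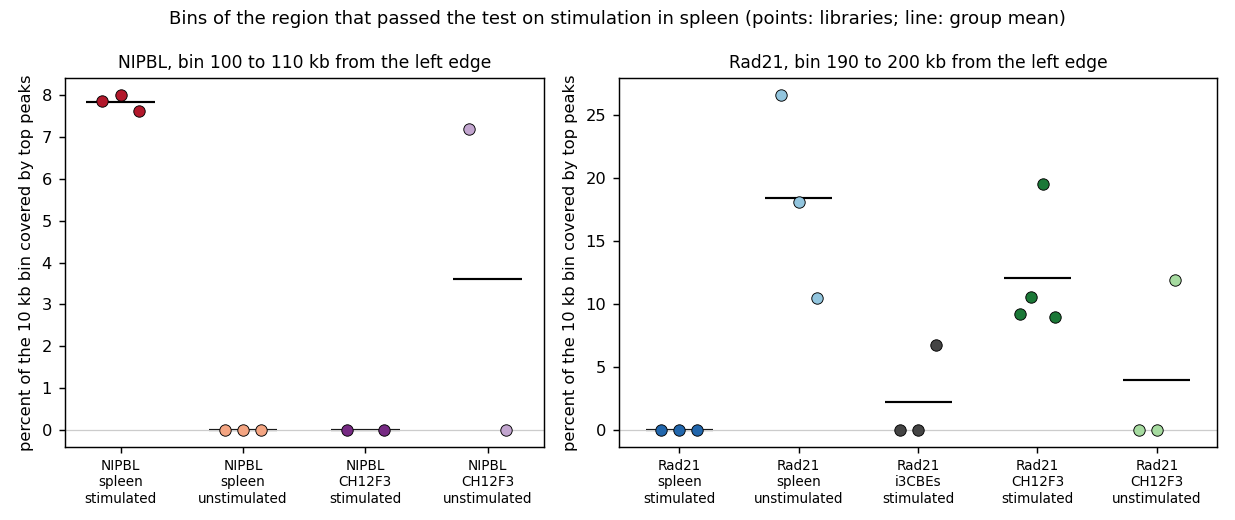
Percent of a 10 kb bin covered by top peaks, 1 point per library, with a line at the group mean, for NIPBL at 100 to 110 kb (left) and Rad21 at 190 to 200 kb (right). NIPBL lies between 7.61% and 8% in stimulated and at 0% in unstimulated splenic libraries, and Rad21 lies at 0% in stimulated and between 10.4% and 26.6% in unstimulated splenic libraries.

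In CH12F3 the difference at the 200-kb site had the opposite sign and did not pass the test on its own. The bin at 190 to 200 kb was covered 9.17%, 10.5%, 19.5% and 8.92% in stimulated CH12F3, against 0%, 0% and 11.9% in unstimulated CH12F3. All 4 stimulated libraries were above 0% but the groups overlapped, and the difference of 8.06 points (SE 3.48) had an adjusted p of 0.817. Same-numbered CH12F3 libraries deviated together, and the stimulated one was higher in 3 of 3 such pairs. With the replicate number as a block, which sets stimulated replicate 4 aside, the difference was 9.10 points (SE 1.27, adjusted p = 0.325) and did not pass the test either. The effect of stimulation in spleen minus that in CH12F3 was -26.4 points (SE 5.78), and this interaction passed the test (limma, adjusted p = 0.0176), the only one of 10 tested bins called, where 3.91% of all tested bins were called in that direction and 0.7% in the other. It kept its call without stimulated splenic replicate 2 (adjusted p = 0.0421). It was lost with the replicate number as a block (adjusted p = 0.0571) and without unstimulated CH12F3 replicate 1 or 2 (adjusted p = 0.0615 and 0.0559). Over all Rad21 peaks deposited the interaction was -16.2 points (adjusted p = 0.9998).

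The peaks behind this lay close to the threshold in CH12F3 too. The strongest deposited peaks at the 200-kb site ranked 19215, 18670, 17167 and 19909 in the 4 stimulated CH12F3 lists, against 21650, 20655 and 19497 in the 3 unstimulated ones. Their fold enrichments were 8.53, 5.85, 5.82 and 5.65 in stimulated libraries and 5.94, 5.66 and 6.68 in unstimulated ones, which overlap.

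Over the whole region, the difference in Rad21 coverage between stimulated and unstimulated CH12F3 did not pass the test. It was 3.40%, 3.00%, 5.72% and 1.82% in stimulated libraries, against 3.13%, 2.11% and 3.77% in unstimulated ones (means 3.49% ± 1.64, SD, n = 4, and 3.00% ± 0.84, SD, n = 3). The difference was 0.485 points (SE 0.783, limma, adjusted p = 0.995) and turned to -0.26 points without stimulated replicate 3. In the pairs of the same number the stimulated library was higher in 3 of 3, and the block gave 1.04 points (SE 0.522, adjusted p = 0.817). No bin of the 8 tested was called, where 0% of all tested bins were called higher and 0.0262% lower, and 1 bin had an unadjusted p under 0.05. The interaction over the region was -4.18 points (SE 1.76, adjusted p = 0.293), and -4.50 points (adjusted p = 0.226) without stimulated splenic replicate 2.

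**Figure D3:**
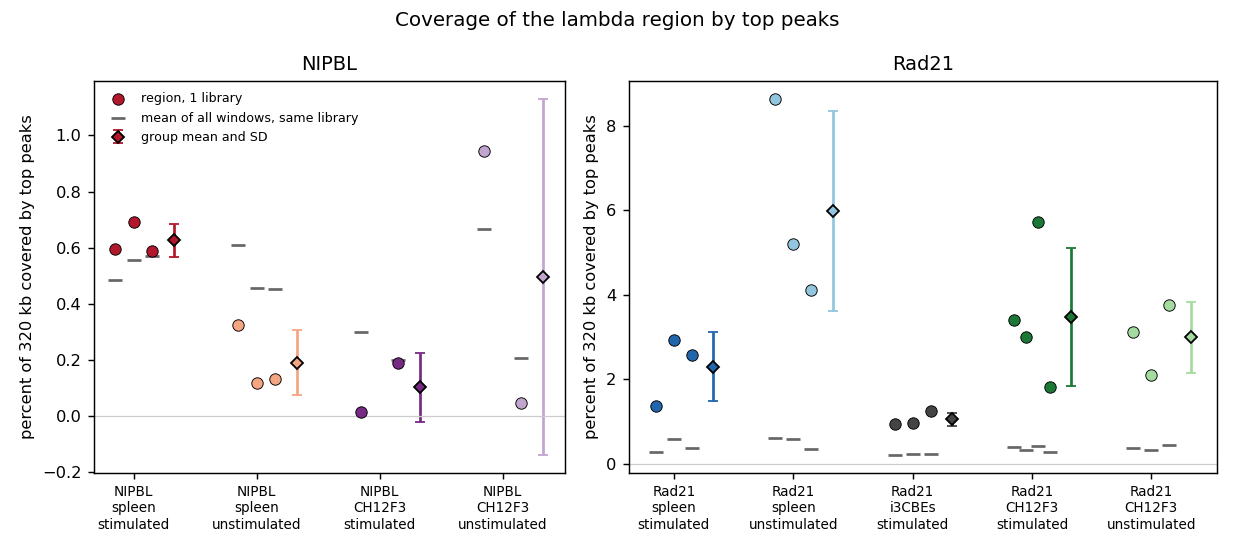
Percent of the 320 kb lambda region covered by top peaks (points: libraries; diamonds: group mean with SD), with the mean over all windows of the same library as a dash, for NIPBL (left) and Rad21 (right). Rad21 lies between 0.954% and 8.64%, above its dash in 16 of 16 libraries, and NIPBL between 0.0159% and 0.945%, above its dash in 4 of 10.

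At the 5 shared Rad21 sites, which by definition had a top peak in every library, cells titled i3CBEs had narrower peaks than stimulated CH12F3. Top peaks covered 0.954%, 0.974% and 1.24% of the region in i3CBEs, against 3.40%, 3.00%, 5.72% and 1.82% in stimulated CH12F3, without overlap, as were 40.9% of all tested windows in that direction. The difference was -2.43 points (SE 0.783), and its adjusted p of 0.068 did not pass the test, but it did so without stimulated CH12F3 replicate 4 (-2.99 points, adjusted p = 0.0213). Of the 8 bins tested, none was called, where 0.179% of all tested bins were called higher and 0.231% lower, and 5 had an unadjusted p under 0.05. In 7 of the 8 every i3CBEs library was below every stimulated CH12F3 library, a pattern that 23.1% of all tested bins showed. At the 284-kb site, for instance, the bin was covered 4.96%, 6.36% and 4.95% in i3CBEs and 14.2%, 12.3%, 13.7% and 9.51% in stimulated CH12F3 (difference -6.97 points, SE 2.34, adjusted p = 0.182).

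The number of top peaks in the region differed little between these cells. Widths of peaks differed in the genome at large as well. The region held 7, 6 and 6 top peaks in i3CBEs, against 6, 7, 8 and 6 in stimulated CH12F3. Of all deposited peaks it held 43, 19 and 22 in i3CBEs, against 121, 174, 237 and 95 in stimulated CH12F3. These covered 2.43%, 1.69% and 2.12% of the region, against 15.5%, 16.9%, 27.5% and 7.12%. The whole lists differed in length too, with 97738, 53237 and 42659 peaks in i3CBEs and 95464, 178792, 271662 and 106966 in stimulated CH12F3. The median width of the strongest peak over the 5 shared sites was 496, 636 and 658 bases in i3CBEs, against 1677, 1226, 3316 and 951 bases in stimulated CH12F3, and at each of the sites every i3CBEs value was below every stimulated CH12F3 value. Over all 20000 top peaks the median width was 238, 252 and 281 bases in i3CBEs and 423, 346, 444 and 300 bases in stimulated CH12F3. Every top peak was then set to 500 bases around its centre, a choice made after seeing the data. With this the difference over the region was -0.0651 points (limma, adjusted p = 0.803). At the bins of the 108-kb, 167-kb, 266-kb and 284-kb sites it was 0. That value was largely fixed in advance, since these sites were picked for a top peak in every Rad21 library.

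Coverage of chromosome 16 as a whole also differed between these groups, and its part in the result was not tested beyond a rescaling. The mean window of chromosome 16 was covered 0.83 ± 0.00783 times as much as the genome's mean window in i3CBEs (SD, n = 3), against 1.30 ± 0.0367 times in stimulated CH12F3 (SD, n = 4). Relative to chromosome 16 in the same library, the lambda region stood at 5.55 ± 0.514 times in i3CBEs and 7.18 ± 2.36 times in stimulated CH12F3. Rescaled for this, again chosen after seeing the data, the difference over the region was -1.41 points (adjusted p = 0.11). The i3CBEs lists also name a control of their own, which cannot be told apart from the cells.

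**Figure D4:**
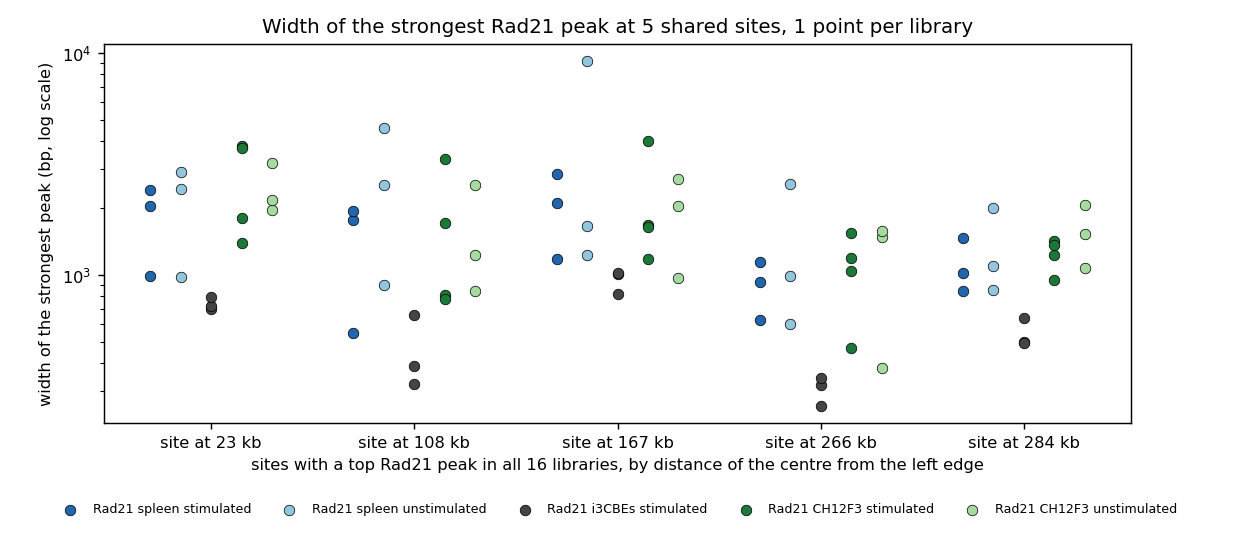
Width of the strongest Rad21 peak in bases (log scale) at each of the 5 shared sites, 1 point per library, ordered left to right by distance from the left edge of the region. Widths run between 256 and 9173 bases, and at each site the 3 i3CBEs libraries, with 256 to 1014 bases, lie below the 4 stimulated CH12F3 libraries.

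The difference in Rad21 coverage of the region between splenic B cells and CH12F3 did not pass the test. With both states weighted equally, the difference of spleen minus CH12F3 was 0.898 points (SE 0.878, adjusted p = 0.44; 0.737 points and adjusted p = 0.545 without stimulated splenic replicate 2), over means of 4.14% ± 2.57 in spleen (SD, n = 6) and 3.28% ± 1.28 in CH12F3 (SD, n = 7). It turned to -0.487 points (adjusted p = 0.463) with equal covered length, and was 3.32 points (adjusted p = 0.475) with a -log10 q of at least 5 and 3.67 points (adjusted p = 0.522) with all deposited peaks. No bin of the 10 tested was called, where 13.6% of all tested bins were called higher and 11.4% lower, and 2 bins had an unadjusted p under 0.05. The bin closest to the threshold was the one at 170 to 180 kb, where spleen held the 3 unstimulated values given above and 3 values of 0%, and CH12F3 held 15.2% in unstimulated replicate 2 and 0% in its other 6 libraries (difference 13.4 points, SE 4.64, adjusted p = 0.0519, and 0.0887 without stimulated splenic replicate 2). Chromosome 16 as a whole was covered 0.949 ± 0.0291 times as much as the genome in spleen (SD, n = 6), against 1.30 ± 0.0272 times in CH12F3 (SD, n = 7), and its part in this comparison was not tested beyond the rescaling, which gave 1.81 points (adjusted p = 0.079).

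NIPBL had no peak in the lambda region that all libraries shared at the top of their lists. Its 35 top peaks formed 27 sites, of which 24 were found in 1 library only and none in 5 or more of the 10. Of the 27 sites, 11 were 51 bases wide. Of the 35 top NIPBL peaks 5 overlapped a Rad21 site, which is 14.3%, and of all 1612 deposited NIPBL peaks 237 did, which is 14.7%. Rad21 sites took up 11.6% of the region.

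A single NIPBL site separated stimulated from unstimulated splenic B cells in every library. It lay at chr16:19082998-19083829, 103 kb from the left edge, and its centre was 4.77 kb to the left of that of the Rad21 site at 108 kb. The bin at 100 to 110 kb was covered 7.87%, 8% and 7.61% by top NIPBL peaks in stimulated splenic libraries, against 0%, 0% and 0% in unstimulated ones. The difference of 7.83 points (SE 0.828) passed the test (limma over all covered bins, adjusted p = 0.0117). The bin met the filter of coverage in at least 2 libraries only through the stimulated ones. It was 1 of 3 tested bins called higher, where 1.75% of all tested bins were called higher, and none was called lower, where the background was 1.24%. It was also the 1 bin higher without overlap of the groups, a pattern of 7.48% of all tested bins.

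This NIPBL peak was not absent from the other libraries. A deposited peak of 510 to 800 bases lay there in all 10 NIPBL lists, with fold enrichments of 6.52, 6.28 and 6.89 in stimulated spleen and 4.04, 4.67 and 4.31 in unstimulated spleen. The stimulated peaks ranked 19267, 13384 and 19372, inside the 20000, and the unstimulated ones ranked 500702, 466979 and 406875. In CH12F3 the fold enrichments were 6.30 and 5.72 in stimulated libraries and 7.39 and 6.41 in unstimulated ones, and only unstimulated replicate 1 had it among the top peaks, with 7.19% of the bin. The effect of stimulation in spleen minus that in CH12F3 was 11.4 points in this bin (SE 2.96, adjusted p = 0.187). The call held in all 6 fits that left out 1 library (adjusted p between 0.0116 and 0.0263). It was lost in a fit of all NIPBL groups (adjusted p = 0.163), with 40000 top peaks (adjusted p = 0.0583), with a -log10 q of at least 5 (7.72 points, adjusted p = 0.384) and with all deposited peaks, where the difference was 3.52 points (adjusted p = 0.746).

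Chosen after its values were seen, the NIPBL site at chr16:19236369-19237637, 257 kb from the left edge and 9.27 kb to the left of the Rad21 site at 266 kb, was found among the top peaks in 3 stimulated splenic libraries and in 1 unstimulated one. The bin at 250 to 260 kb was covered 11.2%, 6.21% and 9.15% in stimulated splenic cells, against 6.51%, 0% and 0% in unstimulated ones, so the groups overlapped (difference 6.69 points, SE 2.39, adjusted p = 0.373). It held no top NIPBL peak in CH12F3, and all 10 lists had a deposited peak there. The highest fold enrichment of the 10, 11.3, was in unstimulated splenic replicate 1. Within the Rad21 site at 167 kb, top NIPBL peaks at chr16:19146404-19146729 were found in unstimulated splenic replicates 1 and 3 and unstimulated CH12F3 replicate 2, and in no stimulated library. The bin there was covered 0%, 0% and 0% in stimulated and 2.46%, 0% and 2.65% in unstimulated spleen (difference -1.70 points, SE 0.76, adjusted p = 0.42).

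Over the whole region, top NIPBL coverage was higher in every stimulated splenic library than in any unstimulated one, without passing the test. It was 0.597%, 0.692% and 0.589% in stimulated cells, against 0.324%, 0.117% and 0.132% in unstimulated cells, a pattern that 7.14% of all tested windows showed. The difference was 0.435 points (SE 0.0923, adjusted p = 0.116). It turned to -0.88 points (adjusted p = 0.29) with the peaks whose -log10 q was at least 5, and was 0.101 points (adjusted p = 0.971) with all deposited peaks and 0 with every top peak set to 500 bases. In CH12F3 the values were 0.0159% and 0.188% in stimulated libraries and 0.945% and 0.0478% in unstimulated ones, and the difference of -0.394 points (SE 0.354, adjusted p = 0.933) turned to 0.0544 without unstimulated replicate 1. That replicate held most of the NIPBL coverage in CH12F3, with 12.05% of the bin at 60 to 70 kb. Stimulated libraries had 0% and 1.6% there and the other unstimulated one 0.51% (difference -5.48 points, SE 4.91, adjusted p = 0.977). Its top peaks were wider in the genome at large too, with a median of 664 bases and 17.0 Mb covered. The other unstimulated list had 129 bases and 5.35 Mb, and the stimulated ones 68 and 51 bases and 7.70 and 5.13 Mb. Neither tested bin was called for NIPBL in CH12F3, where 0% of all tested bins were called in each direction, and neither had an unadjusted p under 0.05.

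Between spleen and CH12F3 the difference in NIPBL coverage of the region did not pass the test. It averaged 0.408% ± 0.252 in spleen (SD, n = 6) and 0.299% ± 0.437 in CH12F3 (SD, n = 4), with a difference of 0.109 points (SE 0.155, adjusted p = 0.711). That difference passed the test without unstimulated CH12F3 replicate 1 (0.333 points, adjusted p = 0.0182) and turned to -0.115 points without unstimulated CH12F3 replicate 2. It passed the test with the opposite sign with all deposited peaks (-3.90 points, adjusted p = 0.0213) and with those whose -log10 q was at least 5 (-2.28 points, adjusted p = 0.0233), so its sign depends on which peaks are used. Chromosome 16 as a whole was covered 0.806 ± 0.0165 times as much as the genome by NIPBL in spleen (SD, n = 6), against 1.39 ± 0.229 times in CH12F3 (SD, n = 4), and rescaling for this gave 0.245 points (adjusted p = 0.4). No bin of 8 was called, where 2.14% of all tested bins were called higher and 0.716% lower, and 1 bin had an unadjusted p under 0.05, that at 250 to 260 kb (difference 5.52 points, SE 1.73, adjusted p = 0.118). For NIPBL the stimulation effect in spleen minus that in CH12F3 was 0.829 points over the region (SE 0.31, adjusted p = 0.514). None of 8 bins was called for it, where 0.00648% of all tested bins were called higher and 0.00324% lower, and 1 had an unadjusted p under 0.05. Over the region it passed the test without unstimulated CH12F3 replicate 2 (1.28 points, adjusted p = 0.00363).

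Set side by side, NIPBL covered far less of the lambda region than Rad21 in both cell types. In spleen every Rad21 list and no NIPBL list names a control, which cannot be told apart from the antibody. In CH12F3 every Rad21 list names one, but of the NIPBL lists only replicate 2 of each state does. In spleen NIPBL covered 0.408% ± 0.252 and Rad21 4.14% ± 2.57 (SD, n = 6 each), a difference of -3.73 points (SE 0.607) that passed the test (adjusted p = 0.000532; 0.00111 without stimulated splenic Rad21 replicate 2), as did 20.4% of all tested windows in that direction. In CH12F3 NIPBL covered 0.299% ± 0.437 (SD, n = 4) and Rad21 3.28% ± 1.28 (SD, n = 7), a difference of -2.95 points (SE 0.744, adjusted p = 0.0112), in a direction in which 26.1% of all tested windows were called. The second difference turned to 0.272 points (adjusted p = 0.767) when the peaks used were all those whose -log10 q was at least 5.

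By bin, 8 of 11 tested bins were lower for NIPBL than for Rad21 in spleen, where 36.7% of all tested bins were, and 6 of 9 in CH12F3, where 43.7% of all tested bins were. No bin was called higher in CH12F3, where 15.7% of all tested bins were. The lower bins included those of all 5 shared Rad21 sites in both cell types. These sites were picked for a top Rad21 peak in every library, so lower NIPBL values there follow in part from that choice. In CH12F3 the bin of the 108-kb site passed narrowly (limma, -14.2 points, SE 5.42, adjusted p = 0.0499). Its call was lost in 7 of 11 fits that left out 1 library (adjusted p up to 0.121) and without the variance trend (adjusted p = 0.057). It was also lost with 40000 top peaks (adjusted p = 0.0856), with all deposited peaks (adjusted p = 0.27) and with a -log10 q of at least 5 (adjusted p = 0.277). The call at 190 to 200 kb in CH12F3 was lost in 7 of 11 leave-one-out fits too (adjusted p up to 0.0952). The bin at 260 to 270 kb, for example, was covered 0% to 0.51% by NIPBL in spleen (median 0%), against 6% to 25.6% by Rad21, with a difference of -11.3 points (SE 2.77, adjusted p = 0.00463). The bin at 250 to 260 kb in spleen was the 1 bin called higher (difference 5.52 points, SE 1.24, adjusted p = 0.00285), where 23.3% of all tested bins were. It held no top Rad21 peak in any of 16 libraries, so it met the filter of coverage in at least 2 libraries only through NIPBL. The lower bins of spleen at 190 to 200 kb and 280 to 290 kb met it only through Rad21. At 250 to 260 kb the difference turned to -15.2 points with 40000 top peaks and -44.6 points with all deposited peaks. Without stimulated splenic Rad21 replicate 2 the bin at 260 to 270 kb kept its call (-11.2 points, adjusted p = 0.0108). So did that at 250 to 260 kb (5.52 points, adjusted p = 0.00651). Of the 8 lower bins in spleen only that at 200 to 210 kb lost its call in this fit (adjusted p = 0.0759). It lost its call in 10 of the 12 fits that left out 1 library.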

How the data were processed

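The 26 lists (10 NIPBL, 16 Rad21) are broad peaks, 1 list per library, aligned to mm9 with Bowtie2 and called with MACS2 per the submitters' processing notes (versions not given in the sources used here). Each peak carries, as the authors deposited it, a fold enrichment (a ratio), a p-value and a q-value, both as -log10, and a score, which is the -log10 q times 10. The 5 input samples were not analysed here.

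The members, bins and alternatives were chosen with earlier results of these data known. From each list 20000 top peaks were kept by -log10 p (ties by fold, then position). The percent covered was computed for every 10 kb bin and every 320 kb window of the genome, laid so that 1 window is the lambda region. limma 3.58.1 with trend (R 4.3.3) tested those with coverage in at least 2 libraries of the fit, with Benjamini-Hochberg adjusted p under 0.05 over all of them, in 11 comparisons. The i3CBEs libraries were fitted together with Rad21 in CH12F3. In a comparison of 2 groups, a bin at 0% throughout 1 of them met the filter only through the other, so the filter is not independent of the difference. The fitting code was also run on coverage values shuffled among libraries within each bin or window, with known shifts added. Shuffling removes differences between whole lists and the pairing by number, so that run cannot show how the fits behave under these. All 32 bins, Rad21 sites in 8 or more of 16 libraries, NIPBL sites in 5 or more of 10 and sites that split 2 groups by every library could be named.

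Wide peaks weigh more than narrow ones, and sites ranked near 20000 move in or out with the threshold. Same-numbered stimulated and unstimulated Rad21 CH12F3 samples deviated together (r between 0.371 and 0.642 over bins), so their numbers pair them; other groups showed no such pairing, or had only 2 pairs. Python 3.11.15, numpy 2.4.6, pandas 2.3.3 and matplotlib 3.10.9 were used. No sequence is printed, since no mm9 genome was used here.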

Additional observations from a re-analysis of the deposited data

Results flagged for a closer look

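In the bin at 190 to 200 kb, which holds most of the Rad21 site at 200 kb, stimulated CH12F3 replicate 3 stood apart from the other 3 stimulated CH12F3 libraries, with 19.52% of the bin covered by top Rad21 peaks, against 8.92% to 10.5% in the others. Its gap to the nearest of them was 0.848 of the range of the group. Chance puts about 1 in 20 tests past this limit. The 10 tests made were all of this 1 group, over the region and its named bins, so they are not independent. In the same bin the effect of stimulation on Rad21 in spleen minus that in CH12F3 was -26.4 percentage points and passed the test of the difference itself (limma, adjusted p = 0.0176). Without stimulated CH12F3 replicate 3 it was -23.9 points (adjusted p = 0.031).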

How the results depend on the processing

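Depth is unknown for all lists. The direction of window differences often turned where more or fewer peaks were used, and the cause was not tested. With a -log10 q of at least 5, stimulated minus unstimulated NIPBL coverage of the region was -0.88 points in spleen and 0.45 in CH12F3, the interaction for NIPBL -1.33, stimulated minus unstimulated Rad21 coverage in CH12F3 -0.039, spleen minus CH12F3 for NIPBL -2.28, and NIPBL minus Rad21 in CH12F3 0.272. With equal covered length, the stimulation difference for NIPBL in CH12F3 was 0.0783, its interaction -0.0783, and spleen minus CH12F3 -0.063 for NIPBL and -0.487 for Rad21. With 40000 top peaks, the stimulation difference for Rad21 in CH12F3 was -0.863 and spleen minus CH12F3 for NIPBL -0.00013. With all deposited peaks these were -3.96 and -3.90, and the interaction for Rad21 was 0.208. With peaks set to 500 bases, spleen minus CH12F3 for NIPBL was -0.0651. In the bin at 250 to 260 kb, NIPBL minus Rad21 in spleen was -15.2, -44.6 and -6.34 points with 40000 top peaks, all deposited peaks and a -log10 q of at least 5. In a fit of all groups, the stimulation difference for Rad21 in spleen was -3.69 and passed the test.

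With the replicate number as a block, i3CBEs minus stimulated CH12F3 over the region was -2.99 points and passed the test (adjusted p = 0.0158), but that fit sets stimulated CH12F3 replicate 4 aside, which has no partner, and these numbers do not pair the samples (r between -0.122 and 0.184 over windows). The block gave 0 called bins for NIPBL stimulation in spleen (adjusted p = 0.169 at 100 to 110 kb), 2 for Rad21 stimulation in spleen and 0 for the Rad21 interaction. For Rad21 stimulation in CH12F3, whose numbers pair the samples, it changed no call. Called bins for NIPBL stimulation in spleen (1) fell to 0 in a fit of all groups, with 10000 or 40000 top peaks, all deposited peaks, equal covered length or a -log10 q of at least 5. Called bins for Rad21 stimulation in spleen (1) fell to 0 under those peak settings and without the trend, and were 3 in a fit of all groups and with peaks set to 500 bases, where bins without spread give very small p-values. Those of the Rad21 interaction (1) fell to 0 under the same peak settings and were 2 with 500 bases. For spleen minus CH12F3 (0), NIPBL had 3 with all deposited peaks and 2 with a -log10 q of at least 5. Rad21 had 1 in a fit of all groups, 2 with 40000 top peaks, 3 with all deposited peaks, 1 with a -log10 q of at least 5 and 1 after rescaling by chromosome. NIPBL minus Rad21 had 21 with all deposited peaks and 5 with equal covered length in spleen (main 9), and 15 with all deposited peaks and 19 with a -log10 q of at least 5 in CH12F3 (main 6).

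Leaving out 1 library at a time gave window differences of -0.843 to 0.0544 for NIPBL stimulation in CH12F3, -4.63 to -2.36 for Rad21 stimulation in spleen, -0.26 to 1.04 for Rad21 stimulation in CH12F3, -2.99 to -1.69 for i3CBEs, -0.115 to 0.333 for spleen minus CH12F3 with NIPBL, and 0.381 to 1.28 for the NIPBL interaction. Called bins ran from 1 to 2 for NIPBL stimulation in spleen, from 0 to 3 for Rad21 stimulation in spleen and for the Rad21 interaction, from 0 to 2 for NIPBL spleen minus CH12F3 and the NIPBL interaction, and from 0 to 1 for Rad21 spleen minus CH12F3. NIPBL minus Rad21 kept its sign and its call in every such fit, in spleen (-4.20 to -3.07) and in CH12F3 (-3.22 to -2.57).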
